A study of Mus musculus with 6 samples.

Results

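The genes described here encode the protein machinery that places RNA polymerase II at promoters. Assembly starts when TFIID, which is made of the TATA-binding protein TBP and the TBP-associated factors (TAFs), binds a core promoter. TFIIA steadies TBP on DNA, TFIIB bridges TBP to the polymerase, TFIIF travels with the polymerase, and TFIIE brings in TFIIH, which opens the DNA and phosphorylates the polymerase tail. Mediator, a large complex with head, middle and tail modules and a detachable kinase module, connects activators bound at enhancers to this assembly. The members were chosen by symbol alone, as genes named Med or Taf followed by a number, Gtf2a to Gtf2h with or without a number, or Tbp. The rule found 68 gene identifiers among the 39017 in the count tables, of which 30 were Mediator genes, 25 were Tbp or TAF genes and 13 encoded TFIIA to TFIIH. These 68 identifiers carried 67 symbols, because Taf9 was listed for 2 of them. In GENCODE vM21 the second identifier (ENSMUSG00000078941) is named Ak6, and the annotated exons of the pair share 1564 bases on the same strand, so reads from either could not be told apart there. The symbol rule also took in genes with other duties. Taf1a, Taf1b, Taf1c and Taf1d belong to SL1, the promoter factor of RNA polymerase I, Taf5l and Taf6l belong to the SAGA coactivator, and Taf15 encodes an RNA-binding protein.

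RNA was measured by polyA-selected RNA-seq in V6.5 mouse embryonic stem cells, with 2 libraries in each of 3 groups. Untreated and auxin-treated cells came from a selected homozygous clone in which RPB1 (Polr2a), the largest subunit of RNA polymerase II, carries a GFP and mini auxin-inducible degron tag and the auxin receptor Tir1 is induced by doxycycline from the Rosa26 locus. Untreated cells received doxycycline at 1 μg/ml for 12 h and no auxin (IAA), and the auxin 6 h cells received the same doxycycline with 500 μM auxin for 6 h, which triggers degradation of the tagged protein. Wild-type cells were labeled as carrying wild-type Pol II, and no doxycycline dose was given for them, so genotype, clone and doxycycline cannot be told apart in that comparison. Their counts were deposited apart from those of the other groups and no batch is given. A difference in preparation or sequencing therefore cannot be told apart from these either. The stem cells were grown on feeder fibroblasts and then moved off them before use. The methods describe replicates of the sequencing experiments as biological, but the labels do not say whether libraries of a group came from separate cultures, so the p-values measure the spread between these libraries, which may be technical.

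The libraries held 14094022 to 15358714 counts assigned to genes. Polr2a had 6623 and 6568 counts in untreated, 10396 and 10663 in auxin 6 h and 6866 and 7129 in wild-type libraries, and since the degron acts on the protein these counts do not check the depletion. All 8 stem cell markers were detected in every library, at a summed level of 3979 to 4472 counts per 1000000 (CPM) in untreated, 3365 to 3566 in auxin 6 h and 6427 to 6464 in wild-type libraries. Because the extraction record of the series names retinas, 8 retinal markers were also examined. Of these, 5 had counts in both untreated libraries, 6 in both auxin 6 h and 5 in both wild-type libraries, with at most 22 counts for any marker in a library. Their summed level was 1.48 to 3.76 CPM, and the photoreceptor genes Crx and Rcvrn were at 0 in all 6 libraries. Of 8 feeder fibroblast markers, 7 were detected in both libraries of untreated and of auxin 6 h cells and 6 in those of wild-type cells, with a summed level of 274 to 293 CPM in untreated, 310 to 345 in auxin 6 h and 165 in wild-type libraries. The 13 mitochondrial mRNAs took 0.341% and 0.401% of counts in untreated, 0.399% and 0.441% in auxin 6 h, and 1.53% and 1.5% in wild-type libraries. The part of these differences in the results was not tested.

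Nearly all of the machinery was expressed in these cells. Levels between genes were compared as RPKM, reads per kilobase of merged exons scaled to the library total, adjusted over the 6 libraries by the trimmed mean of M-values (TMM). The median member level was 10.9 RPKM in untreated, 9.88 in auxin 6 h and 12.0 in wild-type cells, over 67 identifiers. Taf15 had the highest level in every group, at 72.9 ± 2.94 RPKM (SD, n = 2) in untreated cells. It was followed by Gtf2f1, the large subunit of TFIIF, at 58.4 ± 2.95 RPKM, and by Gtf2h1, a core subunit of TFIIH, at 55.6 ± 2.56 RPKM, and these last genes did not differ beyond their spread. Gtf2e2, the small subunit of TFIIE, stood at 49.5 ± 3.23 RPKM, and the next in order, Taf9, at 32.2 ± 2.58 RPKM. Tbp, whose merged exons span 13576 bases, stood at 3.45 ± 0.23 RPKM and Gtf2b, the gene for TFIIB, at 3.26 ± 0.033 RPKM in untreated cells, ranks 62 and 63 of the 68, and they did not differ beyond their spread. Below them came Taf1a and 3 paralogs of core members. Med12l stood at 1.95 ± 0.34 RPKM, Taf9b at 1.28 ± 0.034 RPKM and Gtf2a1l, a testis form of TFIIA, at 1.12 ± 0.14 RPKM, and the last pair did not differ beyond its spread. Med10, a middle-module gene, was listed at 0 counts in all 6 libraries. In GENCODE vM21, 4168 of its 4491 exon bases (92.8%) lie opposite exons of Gm26819, a gene with 111 and 115 counts in untreated, 105 and 104 in auxin 6 h and 53 and 33 in wild-type libraries. The strand setting of the counting was not named, so no level of Med10 is given and 67 identifiers were tested. Besides Med10, both Taf9 identifiers and Taf10, Med20, Med31, Taf6, Med7, Med12l, Taf1c, Tbp, Taf5l, Taf11 and Med21 had over 10% of their 100-base stretches in transcripts of other genes on either strand, so their values are less certain, and 38 members shared no such stretch.

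**Figure D1:**
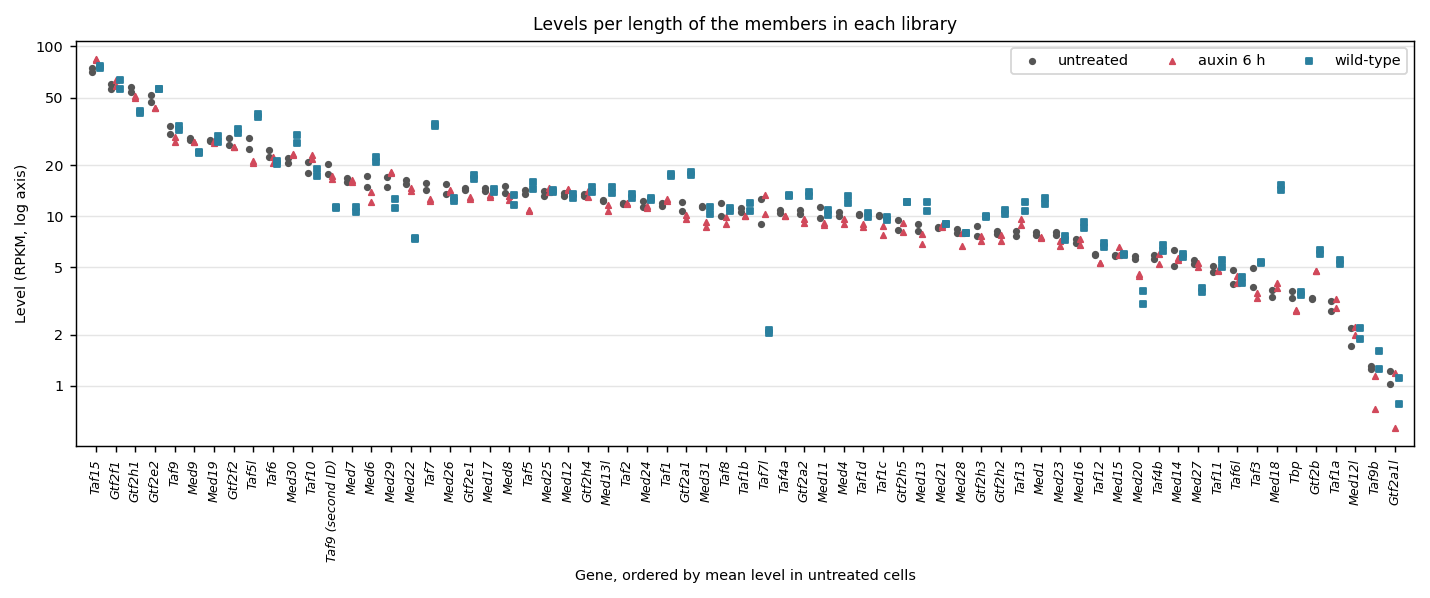
Level per length of each tested member (RPKM, log axis) in each library, ordered from left to right by the mean in untreated cells, with circles for untreated, triangles for auxin 6 h and squares for wild-type libraries (n = 2 each). Most genes lie between 5 and 20 RPKM in all groups, and Taf7l, Med18, Taf7 and Med22 have wild-type points far from the others.

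Promoters of 4 members are shown because these genes carried the differences described below. They are Gtf2b, the member called higher after auxin, and Med18, Taf7l and Med22. These last genes, with Taf7, differed most between wild-type and untreated cells (Taf7 had no RefSeq window). Each is the RefSeq window of 300 bases on GRCm38.p6, from 250 bases before the annotated start to 50 bases after it, written 5′ to 3′ on the strand of the gene. Capitals mark matches, on either strand, to any of 7 motifs that were searched: TATAAA (the TATA box), GGGCGG (the GC box), CACGTG (the E-box), CGGAAG (the ETS core), GCGCATG (the NRF1 half-site), AAGATGG (the YY1 core) and CCAAT. The windows are chr3:142764997-142765296 on the plus strand for Gtf2b, chr4:132463872-132464171 on the minus strand for Med18, chrX:134476441-134476740 on the minus strand for Taf7l and chr2:26910593-26910892 on the minus strand for Med22.
Gtf2b: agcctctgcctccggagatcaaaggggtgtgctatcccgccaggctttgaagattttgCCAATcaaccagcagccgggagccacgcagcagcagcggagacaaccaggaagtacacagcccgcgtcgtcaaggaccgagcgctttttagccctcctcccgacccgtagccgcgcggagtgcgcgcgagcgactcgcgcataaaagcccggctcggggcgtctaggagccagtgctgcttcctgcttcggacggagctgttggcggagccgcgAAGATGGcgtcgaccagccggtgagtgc
Med18: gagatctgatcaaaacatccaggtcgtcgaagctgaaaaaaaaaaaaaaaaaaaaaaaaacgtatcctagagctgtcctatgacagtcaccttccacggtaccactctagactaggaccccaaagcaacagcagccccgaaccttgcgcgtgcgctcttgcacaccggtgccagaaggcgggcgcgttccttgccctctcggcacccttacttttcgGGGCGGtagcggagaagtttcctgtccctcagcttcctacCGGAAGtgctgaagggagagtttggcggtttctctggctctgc
Taf7l: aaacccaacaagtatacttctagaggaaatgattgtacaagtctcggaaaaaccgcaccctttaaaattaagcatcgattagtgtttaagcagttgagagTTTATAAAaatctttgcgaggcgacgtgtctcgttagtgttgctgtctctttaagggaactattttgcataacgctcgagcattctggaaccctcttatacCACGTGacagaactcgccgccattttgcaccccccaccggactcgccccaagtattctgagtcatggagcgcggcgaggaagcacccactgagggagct
Med22: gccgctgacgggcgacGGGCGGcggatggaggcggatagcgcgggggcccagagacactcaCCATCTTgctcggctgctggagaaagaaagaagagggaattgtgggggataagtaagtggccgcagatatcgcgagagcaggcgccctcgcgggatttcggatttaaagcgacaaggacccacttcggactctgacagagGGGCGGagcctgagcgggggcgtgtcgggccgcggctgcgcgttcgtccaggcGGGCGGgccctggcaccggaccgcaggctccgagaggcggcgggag
Positions are counted from the RefSeq start of each window. For Gtf2b and Med22 the GENCODE vM21 gene starts upstream of it, at chr3:142765045 and chr2:26910677. The Gtf2b window held CCAAT at -192 and AAGATGG at 23. That of Med18 held GGGCGG at -33 and CGGAAG at 8. In the Taf7l window, TATAAA matched at -148 and, overlapping it on the other strand, at -150, and CACGTG matched at -49. The Med22 window held GGGCGG at -234, -49 and 5 and AAGATGG on the other strand at -189.

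The members as a class had promoters in which some of these letters were frequent. RefSeq windows were matched for 60 identifiers (73 windows), the second Taf9 identifier through its name Ak6; Med8, Med23, Med24, Med30, Gtf2e2, Taf2, Taf4b and Taf7 had no entry. The ETS core CGGAAG was in 33 of the 73 member windows (45.2%), against 16.9% of all 32851 windows and 27.9% of the windows of tested genes. The NRF1 half-site GCGCATG was in 15.1% of member windows, 3.91% of all windows and 6.50% of those of tested genes, and the 3 shares were 19.2%, 7.15% and 9.73% for CACGTG and 15.1%, 6.34% and 6.60% for AAGATGG. The GC box GGGCGG was in 63.0% of member windows, close to the 60.8% of the windows of tested genes, although all windows held it in 35.7%. TATAAA was in 13.7% of member windows against 7.40% of those of tested genes and 13.6% of all windows, and CCAAT in 32.9% against 37.4% of both sets. Median GC content was 58% in member windows and 60.7% in those of tested genes. A match is a description of the sequence and not a site.

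The first comparison asked which of these genes changed in RNA level, relative to the other genes tested, 6 h after auxin addition. Few passed the threshold, and Gtf2b stood out. It was the only member called higher, at 1.48-fold, while Taf5, Taf5l and Med20 were called lower, at 0.787 to 0.797 of their untreated level. Of 67 identifiers tested, 4 passed the threshold (5.97%), 1 higher and 3 lower, against 4.2% of all 16128 genes tested (2.56% higher, 1.64% lower) and 3.95% of genes averaging 100 counts or more. The test was edgeR's quasi-likelihood test with TMM scaling and Benjamini-Hochberg adjustment over all tested genes, with the threshold at an adjusted p of 0.05. In bulk RNA, fewer cells of a type and less RNA per cell cannot be told apart. Directions after auxin are also relative to TMM scaling, so a loss shared by most mRNAs would not be seen. With scaling to mitochondrial mRNAs the median of all genes was -0.17, and 12 of the 18 members positive with TMM became negative.

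Gtf2b (ENSMUSG00000028271, chr3:142765045-142783606, plus strand), whose window is printed above, was counted 216 times in both untreated libraries and 349 and 336 times in the auxin 6 h libraries. The groups were well apart, and the log2 fold change was 0.56 (SE 0.11, edgeR adjusted p = 0.0128). Its level per length rose from 3.26 ± 0.033 to 4.75 ± 0.031 RPKM, and none of its exon sequence was shared with another transcript over 100 bases. Polr2a, the targeted gene and not a member, was also called higher, with a log2 fold change of 0.57 (SE 0.07, edgeR adjusted p = 0.00117). Taf5, a WD40-repeat scaffold of TFIID, had 632 and 673 counts in untreated and 563 and 542 in auxin 6 h libraries, with a log2 fold change of -0.34 (SE 0.08, edgeR adjusted p = 0.0345). Taf5l, its SAGA counterpart, had 1276 and 1505 counts in untreated and 1176 and 1174 in auxin 6 h libraries. The Taf5l groups did not overlap, but the untreated libraries lay far apart, and the log2 fold change was -0.35 (SE 0.08, edgeR adjusted p = 0.0305). Of its 100-base stretches, 12.6% also occur in Gm13316. Med20, a Mediator head subunit, had 613 and 599 counts in untreated and 534 and 504 in auxin 6 h libraries, with a log2 fold change of -0.33 (SE 0.08, edgeR adjusted p = 0.0455). For Med20, 25.5% of the 100-base stretches are shared with Kpna2-ps and other annotated genes, on either strand.

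These calls did not hold in every fit. DESeq2, which called 1.27% of all genes, called 0 of the members (9 had an unadjusted p under 0.05), edgeR without the filter on low counts called 0, and edgeR scaled to mitochondrial mRNAs called 0. Calls were lost when either auxin library was left out and gained when either untreated one was. The share of all genes called in those fits was not taken. Without 1 library, the log2 fold change was 0.55 to 0.57 for Gtf2b and -0.38 to -0.31 for Taf5. It was -0.46 to -0.24 for Taf5l and -0.36 to -0.30 for Med20. Over the 14 alternatives, the log2 fold change of Gtf2b ranged from 0.39 to 0.58 and its adjusted p from 9.19e-05 to 0.466, with 9 calls. Taf5 (-0.51 to -0.31) and Taf5l (-0.51 to -0.24) also had 9 calls and Med20 (-0.50 to -0.30) had 7, with adjusted p up to 0.254, 0.227 and 0.309.

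The other 63 identifiers tested did not pass the threshold, and the largest of their differences were as large as those of the genes called lower. Tbp had 702 and 649 counts in untreated and 603 and 583 in auxin 6 h libraries, groups that did not overlap, but its log2 fold change of -0.29 did not pass (SE 0.08, edgeR adjusted p = 0.0693). It was called in 3 of the 14 alternatives, over which its log2 fold change ranged from -0.47 to -0.23 and its edgeR or DESeq2 adjusted p from 0.00725 to 0.391. Of the 14 TFIID TAF identifiers, 1 was called lower and 0 higher, and their log2 fold changes ran from -0.34 for Taf5 to 0.24 for Taf13. Taf13, a histone-fold TAF, had 370 and 350 counts in untreated and 481 and 432 in auxin 6 h libraries (edgeR adjusted p = 0.186). Taf15 had 2964 and 3183 counts in untreated and 3899 and 3806 in auxin 6 h libraries, with a log2 fold change of 0.22 that did not pass (SE 0.07, edgeR adjusted p = 0.083). Among the 13 identifiers of TFIIA to TFIIH, Gtf2b was the only call. All 5 members of TFIIA and TFIIE had negative log2 fold changes, from -0.33 for the lowly counted Gtf2a1l to -0.15 for Gtf2e1. Of the 29 Mediator genes tested, Med20 was the only call, and values ran from -0.33 for Med31 in the middle module to 0.20 for Med29 at the border of head and tail. The 4 kinase-module genes had values from -0.20 for Med13 to 0.13 for Med12l. The lowest value of any member, -0.43, belonged to Taf9b, which had only 57 and 60 counts in untreated and 37 and 56 in auxin 6 h libraries (edgeR adjusted p = 0.377).

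Over all identifiers tested, the called ones included, differences after auxin were mostly small and more often negative than positive. The median log2 fold change was -0.09 over the 67 identifiers, against -0.0004 over all genes and -0.02 over genes averaging 100 counts or more. Negative values were found for 49 identifiers (73.1%), against 50.1% of all genes and 56.0% of genes averaging 100 counts or more. For 33 identifiers both auxin libraries lay below both untreated ones and for 12 above, where 24.8% and 25% of all genes did so. At an unadjusted p under 0.05 stood 19 of the 67 in edgeR (28.4%), 4 higher and 15 lower. Of all genes 20.1% did so, and of genes averaging 100 counts or more 20.4%. An absolute log2 fold change under 0.5 was found for 66 of the 67 (98.5%). The share was 88.7% of all genes but 97.9% of genes averaging 100 counts or more, close to that of the members. Gtf2b was the exception.

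**Figure D2:**
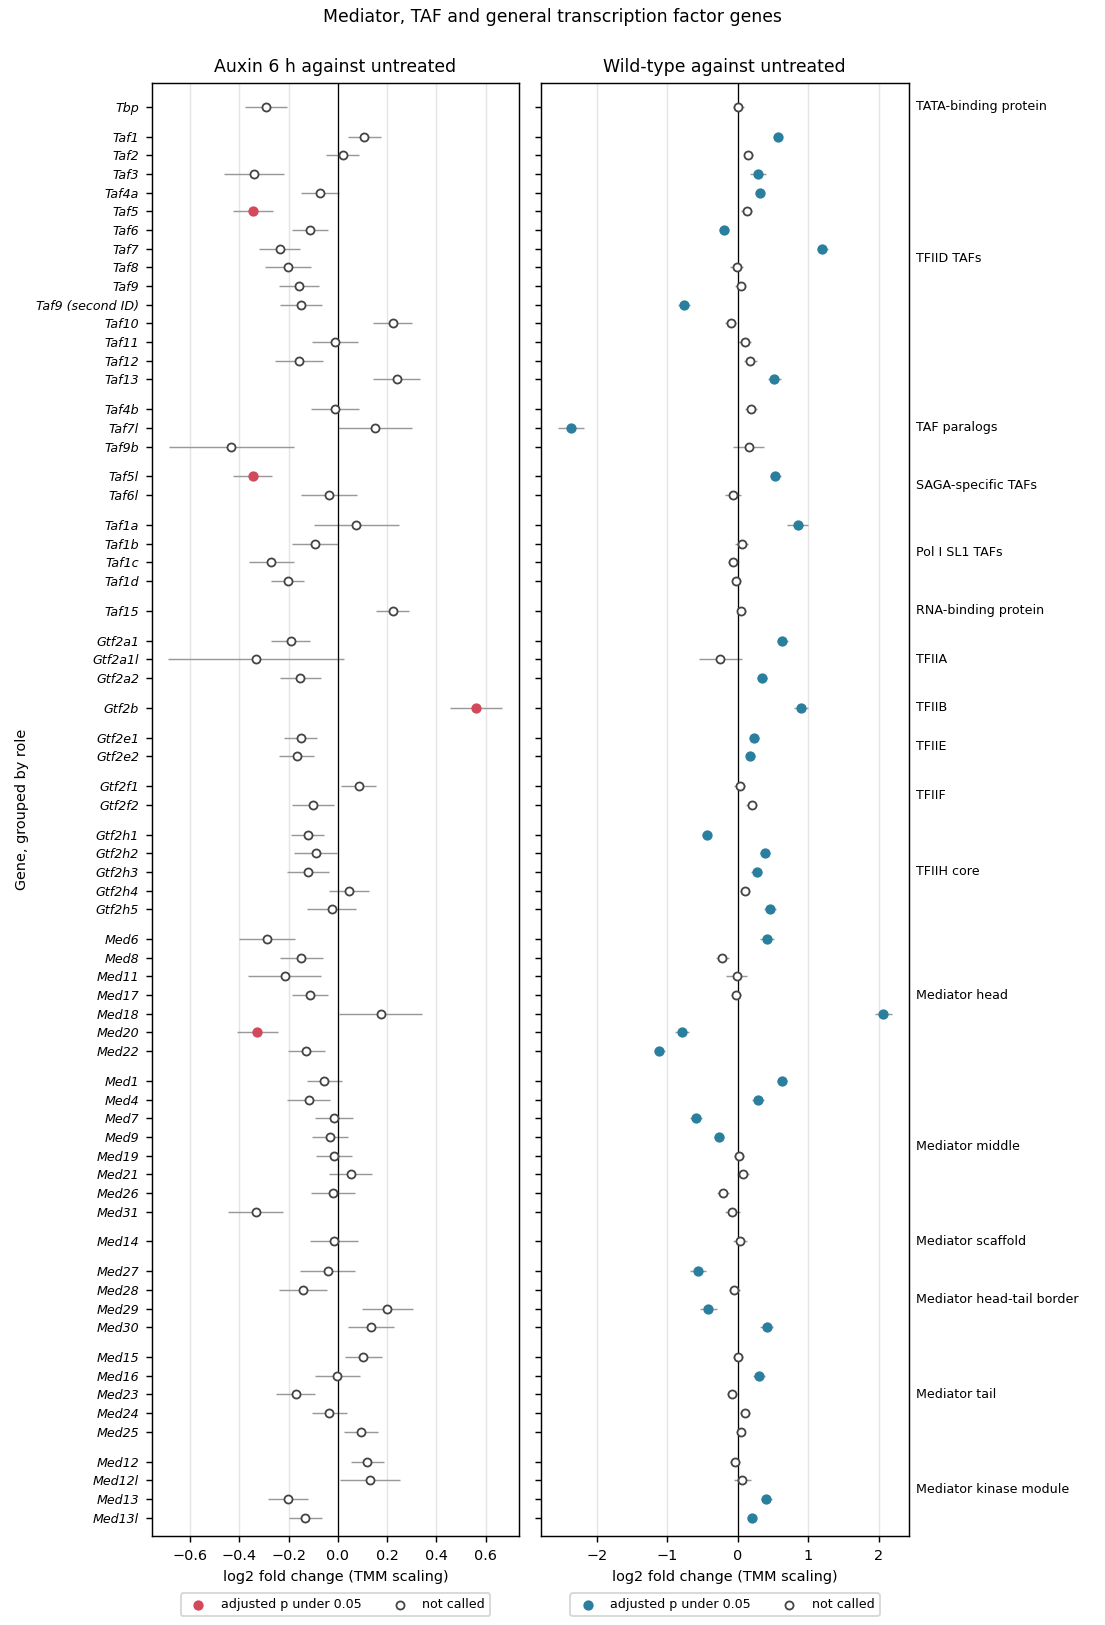
Log2 fold change of each tested member against untreated cells, with lines of 1 SE on each side, for auxin 6 h (left) and wild-type (right), from edgeR with TMM scaling and 2 libraries per group. Filled points have an adjusted p under 0.05, 4 on the left and 33 on the right, and the right axis covers a wider range. Scaling to mitochondrial mRNAs instead would move the right panel down by about 2.1.

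The second comparison set wild-type cells against the untreated degron clone and shares its untreated libraries with the first. Here 4 genes were called with a difference of more than 1 on the log2 scale (5.97%), against 18.1% of all genes tested. Among genes averaging 100 counts or more, 10.6% differed by more than 1, called or not, and 6.15% of the members at that depth. Med18 was 4.18-fold and Taf7 2.30-fold higher in wild-type cells, and Taf7l was 5.17-fold and Med22 2.17-fold lower. In all, 33 of 67 identifiers were called (49.3%), 23 higher and 10 lower in wild-type cells, against 60.6% of all 15778 genes tested (29.9% higher, 30.7% lower) and 67% of genes averaging 100 counts or more. DESeq2 called 18 higher and 7 lower, where it called 38.9% of all genes. Both wild-type libraries lay above both untreated ones for 31 identifiers and below for 16, where 40% and 41% of all genes did so. These directions are relative to TMM scaling: with scaling to mitochondrial mRNAs the median of all genes moved to -2.1, and 66 members were called lower and 0 higher. The share of all genes called lower with that scaling was not taken, so this count cannot be set against all genes. Relative to the median of all genes, the member median was 0.07 with TMM and 0.06 with that scaling.

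Med18 (ENSMUSG00000066042, chr4:132458731-132463921, minus strand), a head subunit that sits on a movable jaw with Med20, had 95 and 107 counts in untreated and 430 and 409 in wild-type libraries. Its log2 fold change was 2.06 (SE 0.12, edgeR adjusted p = 9.57e-08), and its rank by level per length went from 61 to 19. Med22 (ENSMUSG00000015776, chr2:26905262-26910677, minus strand), another head subunit, had 846 and 813 counts in untreated and 380 in each wild-type library, with a log2 fold change of -1.12 (SE 0.08, edgeR adjusted p = 3.59e-07). Relative to the median of all genes, genes of the same module differed in opposite directions. Med20 had 314 and 381 counts in wild-type libraries, with a log2 fold change of -0.79 (SE 0.10, edgeR adjusted p = 2.88e-05). Med17, the core head subunit, had 890 and 867 counts in untreated and 828 and 881 in wild-type libraries, and its log2 fold change of -0.03 did not pass (edgeR adjusted p = 0.736). Of the 7 head genes, 2 were called higher and 2 lower, where 29.9% and 30.7% of all genes were.

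Taf7, a TAF that contacts the acetyltransferase region of Taf1, had 741 and 680 counts in untreated and 1633 and 1605 in wild-type libraries, with a log2 fold change of 1.20 (SE 0.07, edgeR adjusted p = 1.45e-07). Its paralog Taf7l (ENSMUSG00000009596, chrX:134460118-134476490, minus strand), known from male germ cells, had 406 and 292 counts in untreated and 65 and 69 in wild-type libraries. Its untreated libraries lay apart but both were far above the wild-type ones, and the log2 fold change was -2.37 (SE 0.19, edgeR adjusted p = 9.31e-07). The symbol Taf9 gave different values for its identifiers. The first had 922 and 1048 counts in untreated and 1025 and 980 in wild-type libraries, a log2 fold change of 0.04 that did not pass (edgeR adjusted p = 0.698), and the second, Ak6 in GENCODE vM21, had 703 and 819 against 441 and 446, a log2 fold change of -0.77 (edgeR adjusted p = 1.51e-05). Among the other TFIID TAFs, Taf1, the largest subunit, was higher by 0.57, Taf13 by 0.52 and Taf4a by 0.31 on the log2 scale, and Taf6 was lower by -0.20, a call lost without untreated replicate 2 (-0.13) or either wild-type library (-0.16 and -0.21), with DESeq2 (-0.19) and with no filter (-0.19). Tbp had 684 and 664 counts in wild-type libraries and a log2 fold change of 0.01 (edgeR adjusted p = 0.941). Among the TAFs of other complexes, Taf1a of SL1 was higher by 0.85 and Taf5l of SAGA by 0.53, and Taf1b, Taf1c, Taf1d and Taf6l lay between -0.07 and 0.06 and did not pass.

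Of the 13 identifiers of TFIIA to TFIIH, 8 were called higher and 1 lower in wild-type cells, where 29.9% and 30.7% of all genes were. Gtf2b had 388 and 413 counts in wild-type libraries, all above those of untreated cells, with a log2 fold change of 0.90 (SE 0.10, edgeR adjusted p = 1.26e-05). Gtf2a1, which encodes the large precursor of TFIIA, had 1083 and 975 counts in untreated and 1607 and 1554 in wild-type libraries, a log2 fold change of 0.63 (edgeR adjusted p = 2.36e-05), and Gtf2a2, the small subunit, was higher by 0.34. Both TFIIE genes were called, Gtf2e1 at 0.23 and Gtf2e2 at 0.17, and neither TFIIF gene was. Within the TFIIH core, Gtf2h5 was higher by 0.45, Gtf2h2 by 0.39 and Gtf2h3 by 0.27, whereas Gtf2h1 had 2299 and 2489 counts in untreated and 1760 and 1743 in wild-type libraries, a log2 fold change of -0.44 (edgeR adjusted p = 0.000102). All of these higher values turned negative with scaling to mitochondrial mRNAs.

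Of the 29 Mediator genes tested, 8 were called higher and 6 lower, where 29.9% and 30.7% of all genes were. In the middle module, Med1, the subunit bound by nuclear receptors, had 1010 and 986 counts in untreated and 1457 and 1602 in wild-type libraries, a log2 fold change of 0.63 (edgeR adjusted p = 1.6e-05). Med7, which pairs with Med21 in the same module, had 656 and 704 against 463 and 432 counts, a log2 fold change of -0.59 (edgeR adjusted p = 6.84e-05). Med21 itself had 434 and 437 against 452 and 456 counts and did not pass, at 0.07. Med9 was lower by -0.27, a call lost without either wild-type library (-0.26 in each) and with DESeq2 (-0.26). At the border of head and tail, Med27 was lower by -0.57 and Med30 higher by 0.41, and Med29 was lower by -0.42, a call lost without untreated replicate 1 (-0.33) or wild-type replicate 1 (-0.32) and with DESeq2 (-0.41). Only Med16 of the 5 tail genes was called, at 0.30, and Med14, the scaffold that joins the modules, lay at 0.03. In the kinase module, Med13 was higher by 0.40 and Med13l by 0.20, a call lost without wild-type replicate 2 (0.14), with library totals (0.14) and with no filter (0.20), and Med12 and Med12l lay at -0.04 and 0.06.

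With TMM scaling, differences between wild-type and untreated cells were smaller among the members than among all genes. The median absolute log2 fold change of the members was 0.20, against 0.43 over all genes and 0.36 over genes averaging 100 counts or more. A value under 0.5 was found for 52 of the 67 (77.6%), against 55.7% of all genes and 64.2% of genes averaging 100 counts or more.

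**Figure D3:**
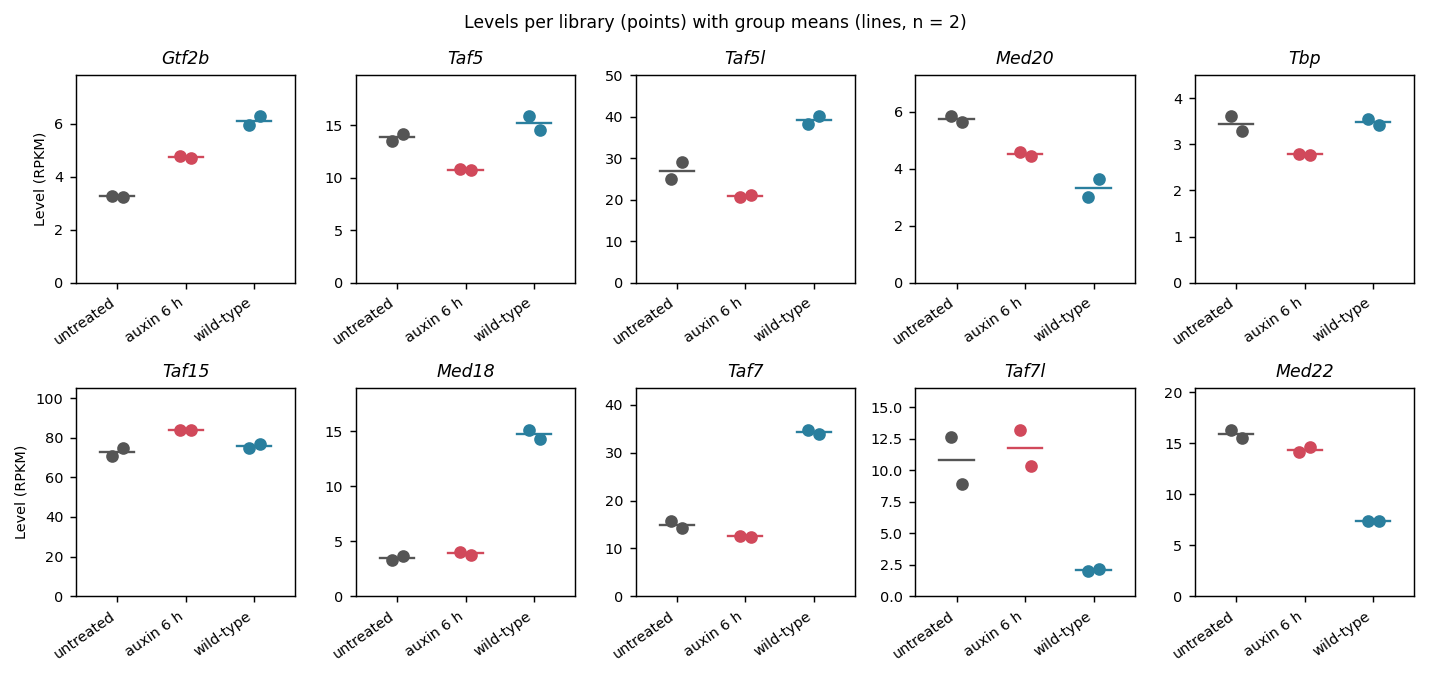
Level per length (RPKM, linear axes from 0) in each library of 10 members, with points for libraries and lines for group means (n = 2). Gtf2b is higher in auxin 6 h and wild-type than in untreated cells, Taf5, Taf5l and Med20 are lower in auxin 6 h cells, and Med18 and Taf7 are high and Taf7l and Med22 low in wild-type cells. Scaling to mitochondrial mRNAs instead turns the wild-type differences of Gtf2b, Taf5l, Med18 and Taf7 negative.

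Several members come in paralog pairs, and the share of each pair's summed RPKM does not depend on the scaling between libraries. Taf5l and Taf6l were placed in SAGA and Taf5 and Taf6 in TFIID, so shares of those pairs are not a choice within a single complex. Taf7l made up 44.6% and 38.7% of the Taf7 and Taf7l level in untreated libraries and 51.2% and 45.6% in auxin 6 h libraries. In wild-type libraries it made up 5.53% and 5.95%, so the groups were far apart. Taf5l held 64.8% and 67.1% of its pair with Taf5 in untreated, 65.6% and 66.4% in auxin 6 h and 70.7% and 73.4% in wild-type libraries. Med13l held 58.1% and 60.3% of its pair with Med13 in untreated, 58.0% and 62.7% in auxin 6 h and 56.1% and 55.4% in wild-type libraries. In both pairs the wild-type shares did not overlap with the untreated ones. The shares depend on the length used. With the longest transcript, those in untreated libraries were 68.9% and 71.0% for Taf5l and 69.1% and 71.0% for Med13l. Wild-type and untreated shares of both pairs did not overlap with that length either. Taf4b, a TAF known from germ cells, held 33.8% and 36.0% of its pair with Taf4a in untreated, 37.4% and 34.3% in auxin 6 h and 32.0% and 33.9% in wild-type libraries. Med12l held 11.4% to 13.97% of its pair with Med12, Taf6l 13.99% to 17.6% with Taf6, and Taf9b 2.44% to 4.76% with the first Taf9 identifier, over the 6 libraries, with overlapping groups. Gtf2a1l held 9.15% and 8.67% of its pair with Gtf2a1 in untreated, 5.58% and 10.5% in auxin 6 h and 4.14% and 6.00% in wild-type libraries. Shares of genes with few counts, such as Gtf2a1l with 17 to 35 counts a library, are imprecise. No test was made of these shares, because 2 libraries against 2 give an exact two-sided permutation p of at least 0.333.

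**Figure D4:**
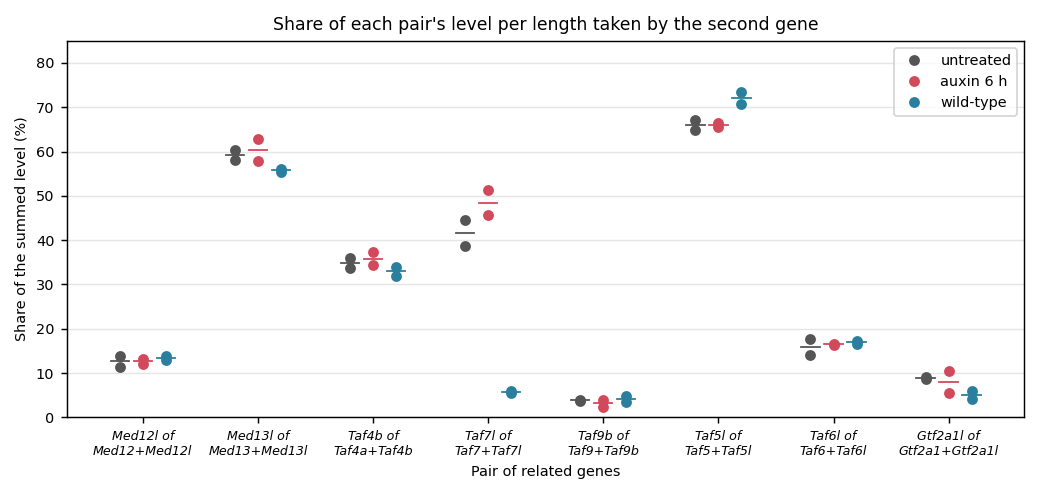
Share of the summed level per length (RPKM) of 8 paralog pairs taken by the second gene of each pair, in percent, with points for libraries and short lines for group means (n = 2). The Taf7l share is 38.7% to 51.2% in the degron clone and 5.53% to 5.95% in wild-type cells, and the other pairs move by less.

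Partners of these complexes that the symbol rule leaves out were read from a separate list of 44 genes, of which 43 were tested in each comparison. After auxin, 1 was called (2.33%, against 4.2% of all genes). It was Gtf3c5, a subunit of the RNA polymerase III factor TFIIIC, with 542 and 578 counts in untreated and 482 and 474 in auxin 6 h libraries and a log2 fold change of -0.33 (SE 0.09, edgeR adjusted p = 0.0475). It was not called without either auxin library, by DESeq2 or with library totals as the scaling. The kinases and helicases of TFIIH (Cdk7, Ccnh, Mnat1, Ercc2, Ercc3) and the Mediator kinase partners (Cdk8, Cdk19, Ccnc) gave 0 calls by edgeR. In wild-type cells all 43 were called lower with scaling to mitochondrial mRNAs, which also moved the median of all genes down. With TMM scaling 24 of the 43 were called (55.8%), 15 higher and 9 lower. Of all genes 60.6% were called with TMM scaling, 29.9% higher and 30.7% lower. Of the RNA polymerase III factors, 6 were called higher, among them Bdp1 and Gtf3c1 at 0.54 and 0.53 on the log2 scale, and 3 lower, Gtf3c6, Brf2 and Brf1. Rrn3, which brings RNA polymerase I to its promoter, was higher by 1.00, with 1591 and 1888 counts in untreated and 3378 and 3524 in wild-type libraries (edgeR adjusted p = 7.32e-07). Btaf1, which removes TBP from DNA, was higher by 0.65, and the Mediator kinase Cdk8 and its cyclin Ccnc by 0.43 and 0.40. Of the 15 SAGA and ATAC subunits 3 were called higher and 3 lower, and the lowest was Tada1, with 199 and 181 counts in untreated and 91 and 99 in wild-type libraries, at -0.99 (edgeR adjusted p = 0.000197).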

How the data were processed

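PolyA-selected RNA-seq libraries of 3 groups, 2 libraries each, were analysed. The authors aligned paired reads of 150 bases with HISAT2 2.1.0 to mm10 and deposited raw read counts per GENCODE gene, made with Salmon and HTSeq; the release and the strand setting are not given in the sources used here. 2 count columns of other samples were not used. Groups came from the labels. The members and lists were chosen with earlier results of these data known.

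Counts of each comparison's 4 libraries were tested with edgeR 4.0.16 (R 4.3.3; quasi-likelihood, TMM, filterByExpr with a minimum count of 10, prior count 0.125), with Benjamini-Hochberg adjustment over all tested genes and a threshold of 0.05. Scripts were tested on simulated counts. Library totals were 14094022 to 15358714, so a gene with few counts is imprecise. RPKM used GENCODE vM21 merged exons, to which 37693 of the 39017 identifiers matched, and 100-base stretches were compared between transcripts on either strand. Genes named were those called in either comparison (if over 30, the 15 of each direction with the smallest p), the 3 highest and 3 lowest members by log2 fold change, Tbp, paralog pairs, Polr2a and called genes of the second list. In the wild-type comparison, Med17, Med21, Med14, Med16, Gtf2h3, Gtf2e1, Gtf2e2 and other members outside that rule were named after their values were seen, to complete a module. Of the markers of stem cells, feeder fibroblasts and retina, 8 each were read. Alternatives were DESeq2 1.42.0, its size factors, library totals, mitochondrial mRNAs as the scaling, other filters, robust dispersions, a replicate block, all 3 groups in one fit, a prior count of 5 and leaving out each library.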

Additional observations from a re-analysis of the deposited data

How the results depend on the processing

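Depth limits the genes with few counts: Gtf2a1l, with 17 to 35 counts a library, had an SE of 0.36 on the log2 scale after auxin, against 0.07 for Taf15. After auxin, the members called higher numbered 1 and those called lower 3. Both counts were 0 with DESeq2, with scaling to mitochondrial mRNAs and with no filter, and were 2 and 7 with all 3 groups in one fit. Leaving out 1 library gave 0 to 4 higher and 0 to 9 lower, and 0 to 9 calls in the second list, whose 1 call became 0 with DESeq2, library totals, mitochondrial scaling, no filter or at least 10 counts in every library, 2 with robust dispersions and 4 with all 3 groups in one fit. In the wild-type comparison, the calls (23 higher, 10 lower) ranged from 18 to 25 and 8 to 12 without 1 library. The median log2 fold change of the members ranged from -0.09 to -0.08 after auxin and from 0.07 to 0.09 in wild-type cells without 1 library, and was -0.26 and -2.04 with mitochondrial scaling and 0.002 in wild-type cells with library totals. The cause of these changes was not tested. DESeq2 called 1.27% of all genes after auxin. For the other alternatives of this paragraph the share of all genes called was not taken, so their counts of calls cannot be set against all genes.

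With mitochondrial mRNAs as the scaling, 0 members were higher and 66 lower in wild-type cells, and 43 genes of the second list were called. This scaling moved the median of all genes by -0.17 after auxin and -2.1 in wild-type cells, and no share of all genes called was taken with it. Of members positive with TMM, 12 of 18 after auxin and all 43 in wild-type cells became negative under it, and 0 changed the other way. Among the genes that the rule named in each comparison these were, after auxin, Med12 (-0.049), Med12l (-0.048) and Taf7l (-0.028), and in wild-type cells Gtf2a1 (-1.47), Gtf2a2 (-1.76), Gtf2b (-1.19), Gtf2h2 (-1.71), Gtf2h5 (-1.64), Med1 (-1.47), Med12l (-2.05), Med13 (-1.70), Med13l (-1.90), Med18 (-0.023), Med30 (-1.69), Taf1 (-1.52), Taf13 (-1.58), Taf1a (-1.24), Taf4a (-1.79), Taf4b (-1.91), Taf5 (-1.97), Taf5l (-1.55), Taf7 (-0.90), Taf9 (-2.05), Taf9b (-1.94) and Tbp (-2.09). Other sign changes were of values near 0: Taf4b after auxin (0.0067), Taf9 (-0.021) and Tbp (-0.051) in wild-type cells with library totals, and Tbp in wild-type cells with at least 10 counts in every library (-0.010). Without 1 library, values that changed sign ranged, after auxin, from -0.96 to 0.11 for Gtf2a1l, from -0.043 to 0.32 for Med12l, from -0.12 to 0.083 for Taf4b, from -0.16 to 0.096 for Taf6l and from -0.080 to 0.41 for Taf7l, and in wild-type cells from -0.071 to 0.0050 for Med12, from -0.11 to 0.25 for Med12l, from -0.20 to 0.064 for Taf6l, from -0.044 to 0.12 for Taf9, from -0.038 to 0.33 for Taf9b and from -0.061 to 0.075 for Tbp.

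A replicate block gave 3 higher, 10 lower and 6 calls in the second list after auxin, with 12% of all genes called. The correlation of the deviations of same-numbered libraries, pooled over all tested genes, was 0.053 after auxin and -0.029 in the wild-type comparison. Being pooled over all genes, these values cannot show whether same-numbered libraries shared a culture or batch, which the labels do not say. Median levels with the longest transcript as the length were 15.4 (untreated), 14.8 (auxin 6 h) and 17.6 RPKM (wild-type), and with library totals 10.2 (auxin 6 h) and 11.5 (wild-type).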
